A study of Mus musculus with 36 samples.

Results

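The genes described here belong to the major histocompatibility complex (MHC) class II pathway of the mouse, together with the invariant chain. They were chosen by symbol from a list of 9 genes: H2-Aa, H2-Ab1, H2-Eb1, Cd74, Ciita, H2-DMa, H2-DMb1, H2-Oa and H2-Ob. A row with one of these symbols was found for 6 of them among the 12762 genes of the expression table, namely H2-Ab1, Cd74, H2-DMa, H2-DMb1, H2-Oa and H2-Ob. H2-Aa, H2-Eb1 and the transactivator Ciita were not analysed here.

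Messenger RNA was sequenced from B3, a mouse pre-B cell line, in 36 libraries that form 12 groups of 3. In Ikaros cells, a retrovirus (MSCV) delivered Ikaros with an HA tag, joined to the part of the estrogen receptor that binds hormone (ERt2), and the same transcript also gave GFP. The control virus had ERt2 and GFP but no Ikaros. Each line was collected at 0, 2, 6, 12, 18 and 24 h, and 4-hydroxy-tamoxifen (4-OHT), which moves the fusion protein into the nucleus, was given to both lines. The labels list 4-OHT at 0.5 uM for the 0 h cultures too, whereas the methods of the study describe those cultures as drug-free and as obtained on other occasions, so that a comparison with 0 h also compares occasions of collection. As a model the system is limited to 1 cell line, whose transduced cells were sorted on GFP, and to Ikaros driven from a viral vector on top of the Ikaros that B3 cells make themselves. The numbered culture batches were 1, 2 and 4 at 0 h and 1, 3 and 4 at the later times, each shared by both lines.

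MHC class II molecules present peptides to CD4 T cells. In the mouse the classical molecules are I-A, made of the H2-Aa and H2-Ab1 chains, and I-E, whose beta chain is H2-Eb1. New class II molecules are held by the invariant chain, Cd74, which fills the groove and guides them to endosomes, where proteases cut it down to a remnant. H2-DM, a dimer of H2-DMa and H2-DMb1, takes that remnant out and helps peptides in, while H2-DO, a dimer of H2-Oa and H2-Ob found mostly in B cells, binds H2-DM and inhibits it. The genes are switched on by Ciita, which docks on RFX, CREB and NF-Y proteins bound to the X and Y boxes of their promoters, and class II rises as mouse B cells mature.

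Promoters of 6 of the 9 genes were given in the RefSeq sequences for GRCm38.p6, 300 bases each, from 250 before to 50 after the start, and 4 of these 6 genes were measured. In 5 of the 6 (H2-Oa, H2-Ob, H2-DMb1, H2-Aa and H2-Eb1) the letters GNAAC, part of the X box, were followed on the gene's own strand by the Y box letters GATTGG after 20 to 40 bases. The same pair stood in 383 of 32851 promoters, or 1.17%, when either strand was searched, and GATTGG alone in 16.1%. The spacing was chosen after these sequences had been seen, so the count describes the promoters and tests nothing. Neither of the 2 promoters given for H2-DMa held the pair. The H2-DO promoters are printed because the H2-DO genes had the largest differences of the 6 measured genes, and those of H2-Aa and H2-Eb1 because they show the same layout in classical class II genes. Capitals mark the X box letters and the Y box.
H2-Oa, chr17:34092288-34092345, forward strand: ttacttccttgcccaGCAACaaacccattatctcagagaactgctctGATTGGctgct
H2-Ob, chr17:34238803-34238857, forward strand: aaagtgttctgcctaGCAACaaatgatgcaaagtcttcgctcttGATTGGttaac
H2-Aa, chr17:34287862-34287919, reverse strand: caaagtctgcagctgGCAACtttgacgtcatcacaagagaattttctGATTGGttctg
H2-Eb1, chr17:34305761-34305817, forward strand: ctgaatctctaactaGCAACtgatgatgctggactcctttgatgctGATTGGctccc
All 4 stretches have GCAAC, and the bases between the boxes number 27 in H2-Oa and H2-Aa, 26 in H2-Eb1 and 24 in H2-Ob. The pair of H2-DMb1, also 27 bases apart, lies inside an annotated exon of that gene in GENCODE and is not printed. TGGGAA, a word with the GGGAA core that Ikaros binds, was found on either strand in the promoters of H2-Oa, H2-Ob and H2-Aa, and in 25.6% of all promoters. These matches are descriptions of letters and not evidence of binding.

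Expression is given as log2 values that the authors had corrected for GC content and gene length. They appear to be shifted by a constant, as the lowest is 1, so a level is relative and not a count. The table keeps no read counts, and the read totals of the study's quality control were not used here, so the depth behind each value is not given. Library medians lay between 11.70 and 11.73, and no pair of libraries shared more than 0.384% of values. Ikzf1, the gene for Ikaros, was higher in every Ikaros library than in every control library at each time, by 5.19 at 0 h and 6.10 at 24 h (log2), so the line labels held. All 8 B lineage markers had a row (summed level at 24 h 19.42 to 19.58 in control and 19.75 to 19.84 in Ikaros cells). Of these, 5 were higher in Ikaros cells at 24 h and 2, the surrogate light chain genes Vpreb1 (-3.42) and Igll1 (-3.96), were lower, while Cd79a, at 18.61 in control and 18.46 in Ikaros cells, did not pass the test. Of 7 T cell markers only Lck did (summed level at 24 h 10.86 to 11.21 in control and 10.88 to 11.18 in Ikaros cells), and of 7 dendritic cell markers only Xcr1 did (4.25 to 5.78 and 5.00 to 6.25). Of 8 macrophage marker symbols, among which Adgre1 and Emr1 name the same gene, Cd68, Itgam, Lyz2 and Mpeg1 had a row. Their summed level at 24 h was 11.25 to 11.41 in control and 11.73 to 12.33 in Ikaros cells, with Itgam and Mpeg1 higher and Lyz2 lower. The macrophage sums were apart at 0 h too, at 10.89 to 11.37 in control and 11.86 to 12.24 in Ikaros cells. The part of such transcripts in the class II results was not tested.

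The first question was how far the class II genes of the 2 lines differed over the time course. At 24 h H2-Oa and H2-Ob were about as far above control as each other, 33.8-fold and 33.4-fold, Cd74 was 3.25-fold and H2-DMb1 2.33-fold higher, H2-Ab1 was 3.13-fold lower, and H2-DMa did not pass the test. With limma and Benjamini-Hochberg adjustment over all genes, at adjusted p under 0.05, 1, 3, 2, 6, 6 and 5 of the 6 genes passed at 0, 2, 6, 12, 18 and 24 h, against 8.33%, 19.1%, 37.3%, 45.8%, 58.2% and 62.9% of the whole table. At 24 h 4 were higher and 1 was lower, where 31% of all genes were higher and 31.9% lower. The median difference of the 6 genes at the same times was 0.17, 0.69, 0.37, 1.35, 1.34 and 1.46 (log2), while the median over all genes lay between -0.03 and 0.00. With so much of the table called, the number of calls at 18 and 24 h says little about these genes, and their sizes and courses are given instead. In bulk RNA, a change in every cell and a change in the share of cells that express a gene cannot be told apart.

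**Figure D1:**
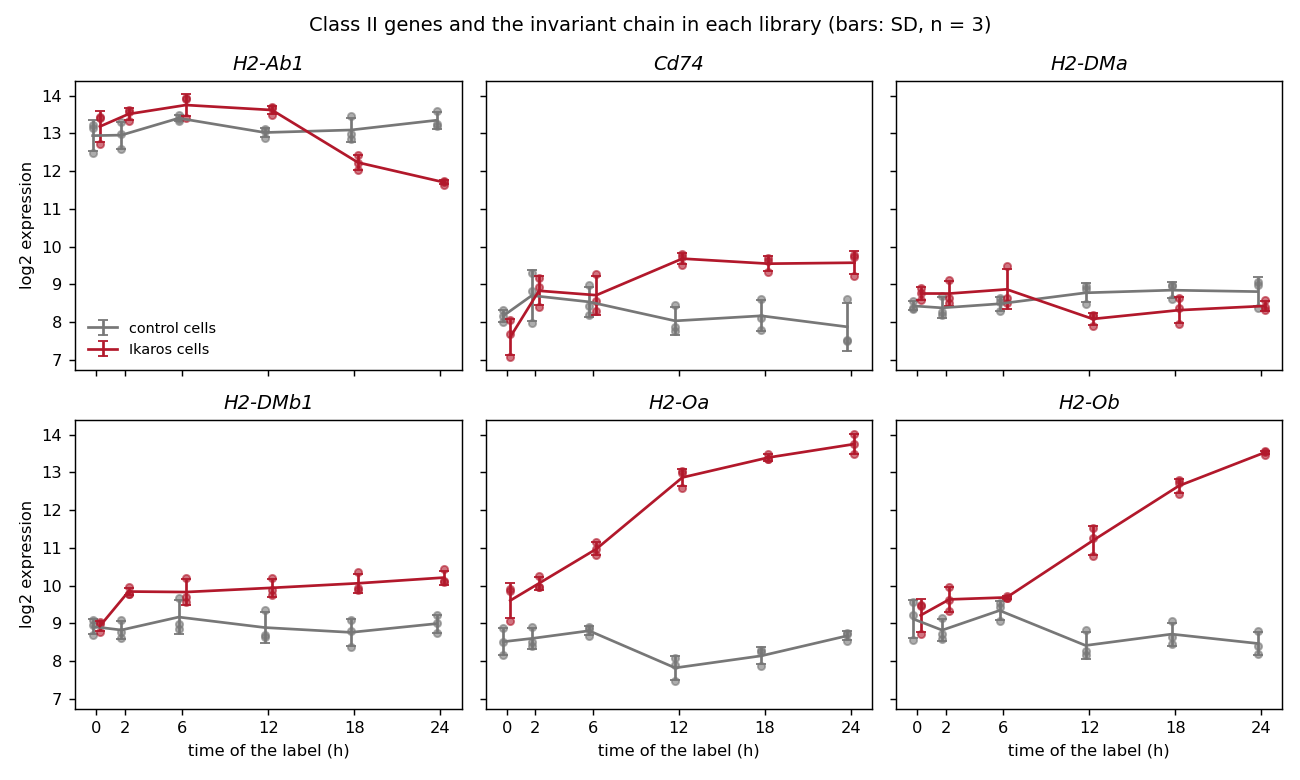
Log2 expression (vertical axis) of the 6 genes against time in hours (horizontal axis), with 1 point per library and lines through the group means; bars are the SD of 3 libraries, grey for control and red for Ikaros cells. H2-Oa and H2-Ob climbed in Ikaros cells to 13.75 and 13.53 at 24 h, whereas H2-Ab1 fell to 11.70 after 12 h.

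H2-Oa (ENSMUSG00000024334; GRCm38 chromosome 17, 34092340 to 34095234, forward strand) encodes the alpha chain of H2-DO. In control cells its 3 libraries read 8.88, 8.51 and 8.16 at 0 h and 8.72, 8.54 and 8.75 at 24 h. In Ikaros cells they read 9.86, 9.90 and 9.06 at 0 h, 9.95, 9.98 and 10.25 at 2 h, and 11.14, 10.97 and 10.80 at 6 h. The later Ikaros libraries read 12.98, 12.60 and 13.02 at 12 h, 13.49, 13.34 and 13.34 at 18 h, and 14.02, 13.47 and 13.76 at 24 h. At all 6 times every Ikaros library lay above every control library. The difference between the lines was 1.09 at 0 h (adjusted p = 0.000659), 1.46 at 2 h, 2.17 at 6 h and 5.04 at 12 h (adjusted p = 8.69e-06, 6.71e-09 and 2.65e-16), and then stood at 5.25 by 18 h and 5.08 by 24 h (SE 0.21, adjusted p = 5.83e-17). At 12, 18 and 24 h the means were 7.82, 8.14 and 8.67 in control and 12.86, 13.39 and 13.75 in Ikaros cells. The similar differences at these times thus came with higher means in both lines. The call at 0 h was lost when only the 2 groups were fitted (adjusted p = 0.0710) and without the second replicate (0.139). The difference was larger at 24 h than at 0 h by 3.99 (SE 0.29, adjusted p = 1.94e-11) and than at 2 h, without any 0 h library, by 3.62 (adjusted p = 1.68e-10). At 24 h, on this length-corrected scale, H2-Oa stood at the 19.3rd percentile of all genes in control and at the 82.5th in Ikaros cells. The annotated gene overlaps BC051537, an antisense transcript on the other strand. Whether the counting used strand is not given in the sources used here, and the part of that transcript in these values was not tested.

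H2-Ob (ENSMUSG00000041538; GRCm38 chromosome 17, 34238903 to 34254414, forward strand) encodes the beta chain of H2-DO. Its control libraries read 9.57, 9.21 and 8.56 at 0 h and 8.80, 8.20 and 8.41 at 24 h. Its Ikaros libraries read 9.48, 9.45 and 8.71 at 0 h, 9.32, 9.61 and 9.97 at 2 h, and 9.68, 9.66 and 9.72 at 6 h. They then read 11.25, 10.79 and 11.54 at 12 h, 12.79, 12.43 and 12.71 at 18 h, and 13.56, 13.55 and 13.47 at 24 h. The lines overlapped at 0 h, and at each later time the Ikaros libraries lay above all control libraries. The difference was 0.10 at 0 h (adjusted p = 0.902), 0.81 at 2 h (adjusted p = 0.0231), 0.35 at 6 h (adjusted p = 0.295), 2.78 at 12 h (adjusted p = 1.02e-09), 3.93 at 18 h (adjusted p = 5.67e-13) and 5.06 at 24 h (SE 0.25, adjusted p = 2.14e-15). The call at 2 h was lost when only the 2 groups were fitted (adjusted p = 0.102) and without the second (0.243) or the third replicate (0.192, with a difference of 0.53). The difference grew by 4.96 from 0 h to 24 h (SE 0.36, adjusted p = 1.28e-11) and by 4.25 from 2 h to 24 h (adjusted p = 2.97e-10).

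Both chains of H2-DO reached like levels by 24 h but their courses were not the same in their values. H2-Oa had covered 32.9% of its log2 rise from 0 to 24 h in Ikaros cells by 6 h and 78.7% by 12 h, where H2-Ob had covered 11.0% and 45.8%. In Ikaros cells H2-Oa rose from 2 to 6 h by 0.91 (adjusted p = 0.00473) and from 6 to 12 h by 1.89 (4.98e-07), and the steps of 0.53 from 12 to 18 h (0.0615) and 0.36 from 18 to 24 h (0.406) did not pass the test. H2-Ob changed by 0.05 from 2 to 6 h (0.933), then rose by 1.504 (0.000160), 1.45 (0.000124) and 0.89 (0.0348) over the following 3 steps. These steps between successive times were added after the values had been seen, and the difference in course between the 2 genes was not itself tested. Of the rises, that of H2-Oa from 2 to 6 h was lost without the first (adjusted p = 0.133) or second replicate (0.140) and with only its groups fitted (0.0882), that of H2-Ob from 6 to 12 h with only its groups fitted (0.0530), and that of H2-Ob from 18 to 24 h without any one replicate (0.0530 to 0.569). The step of H2-Oa from 12 to 18 h was called with a batch block (0.0353), after the filter on low genes (0.0482) and without the third replicate (0.0281). In control cells, H2-Oa fell from 6 to 12 h by 0.98 (adjusted p = 0.0266), and H2-Ob differed by -0.93 over the same step (0.0638, and 0.0181 with a batch block). The fall of H2-Oa was not called without the first (0.497) or second replicate (0.240) or with only its groups fitted (0.224).

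**Figure D2:**
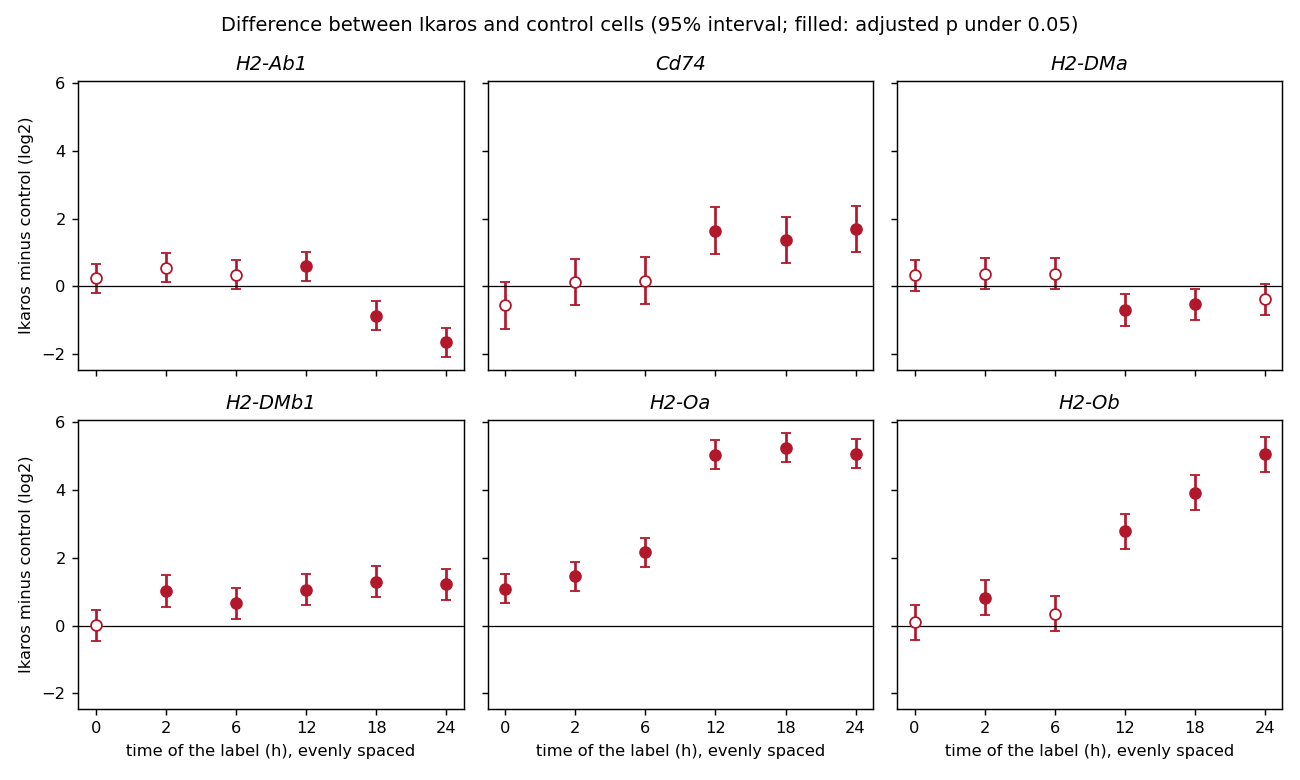
Ikaros minus control (vertical axis, log2) for each gene at each time in hours (horizontal axis, evenly spaced); points are limma estimates from 3 libraries a group, bars their 95% intervals, and filled points had an adjusted p under 0.05. H2-Oa was near its final difference at 12 h (5.04), though its means in both lines were higher at 24 h than at 12 h. H2-Ob reached 5.06 only at 24 h, H2-Ab1 crossed from 0.60 at 12 h to -1.64 at 24 h, and H2-DMb1 stood at 1.02 already at 2 h.

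H2-DMb1 (ENSMUSG00000079547; GRCm38 chromosome 17, 34153072 to 34160230, forward strand) encodes the beta chain of H2-DM. At 0 h its libraries read 8.70, 8.95 and 9.10 in control and 9.03, 8.77 and 8.98 in Ikaros cells, and at 2 h they read 8.77, 8.62 and 9.08 in control and 9.79, 9.78 and 9.96 in Ikaros cells. At 24 h the values were 9.23, 8.76 and 8.997 in control and 10.43, 10.10 and 10.11 in Ikaros cells. The lines overlapped at 0 and 6 h and were apart at the other times. The difference was 0.01 at 0 h (adjusted p = 0.986), 1.02 at 2 h (adjusted p = 0.00159), 0.66 at 6 h (adjusted p = 0.0210), 1.05 at 12 h (adjusted p = 0.000343), 1.30 at 18 h (adjusted p = 1.63e-05) and 1.22 at 24 h (SE 0.22, adjusted p = 3.21e-05). From 2 h to 24 h it changed by 0.20 (95% interval -0.45 to 0.85, adjusted p = 0.630), and in Ikaros cells the step from 0 to 2 h was a rise of 0.92 (adjusted p = 0.00522). Without the second replicate the calls at 2 h (adjusted p = 0.0937) and 6 h (0.164), the rise from 0 to 2 h in Ikaros cells (0.113) and the change of the difference from 0 to 24 h (0.0833) were lost, and the 6 h call was lost without the third replicate too (0.236, with a difference of 0.38) and with only its 2 groups fitted (0.160). H2-DMb2, a near copy next to H2-DMb1, had group means of 5.49 (control) and 6.13 (Ikaros) at 24 h (adjusted p = 0.364), under the 5th percentile of gene means (6.15). Without the third replicate it was called higher (1.45, adjusted p = 0.000484), and how reads were shared between the copies is uncertain.

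H2-DMa (ENSMUSG00000037649; GRCm38 chromosome 17, 34119541 to 34139101, forward strand) encodes the partner chain of H2-DM, and it was not called higher in Ikaros cells at any time. At 12 h its libraries read 8.87, 8.96 and 8.49 in control and 8.16, 8.20 and 7.90 in Ikaros cells, with no overlap. At 24 h they read 9.07, 8.99 and 8.37 in control and 8.40, 8.58 and 8.31 in Ikaros cells, and overlapped. The difference was 0.33 at 0 h (adjusted p = 0.485), with every Ikaros library above every control library, 0.38 at 2 h (0.276) and 0.38 at 6 h (0.190). It was then -0.69 at 12 h (adjusted p = 0.0139), -0.53 at 18 h (adjusted p = 0.0472) and -0.38 at 24 h (95% interval -0.85 to 0.08, adjusted p = 0.146). The 12 h call was lost without the first (0.0727) or the second replicate (0.139), and the 18 h call without the second (0.232) or the third (0.263, with a difference of -0.28), with only its 2 groups fitted (0.0806) and with trend and robust settings (0.0710). Without the third replicate the 24 h difference was called (-0.54, adjusted p = 0.0359). The change of the difference since 0 h was called at 12 h (-1.02, adjusted p = 0.0167) and 18 h (-0.86, 0.0319) but not at 24 h (-0.71, 0.0700). At 12 h it was lost without the first (0.0964) or the second replicate (0.212). At 18 h it was lost without the second (0.244) or the third (0.0782) and with trend and robust settings (0.0509). At 24 h it was called after quantile normalization (0.0380), with only its groups fitted (0.0325) and without the third replicate (0.0173). The annotated gene overlaps Brd2 on the other strand. The library protocol of the study keeps strand (dUTP), but whether the counting used it is not given in the sources used here, so the values of H2-DMa are uncertain.

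Cd74 (ENSMUSG00000024610; GRCm38 chromosome 18, 60803848 to 60812652, forward strand) encodes the invariant chain. At 6 h its libraries read 8.20, 8.42 and 8.99 in control and 8.57, 9.28 and 8.29 in Ikaros cells. At 12 h they read 7.77, 7.88 and 8.45 in control and 9.73, 9.79 and 9.52 in Ikaros cells, and at 24 h 7.54, 7.49 and 8.60 against 9.72, 9.77 and 9.23. The lines overlapped at 0, 2 and 6 h and were apart from 12 h on. The difference was -0.56 at 0 h (adjusted p = 0.394), 0.13 at 2 h (adjusted p = 0.847), 0.18 at 6 h (adjusted p = 0.710), 1.65 at 12 h (adjusted p = 0.000200), 1.38 at 18 h (adjusted p = 0.000877) and 1.70 at 24 h (SE 0.33, adjusted p = 7.78e-05). It grew by 2.26 from 0 to 24 h (SE 0.47, adjusted p = 0.000266) and by 1.57 from 2 to 24 h (0.00752), the latter not called without the first (0.0725) or the second replicate (0.124). From 2 to 24 h the mean went from 8.83 to 9.57 in Ikaros cells and from 8.70 to 7.87 in control cells. In Ikaros cells Cd74 rose by 1.23 from 0 to 2 h (adjusted p = 0.0115) and by 0.97 from 6 to 12 h (0.0394), while the control cells differed by 0.54 from 0 to 2 h (0.685). The first of these rises was lost without the second replicate (0.114) and when only its groups were fitted (0.0684), and the other without any one replicate (0.0671 to 0.180) or with only its groups (0.157). On the length-corrected scale its mean over the 36 libraries lay at the 18.9th percentile of genes, and at the 24.8th in Ikaros cells at 24 h.

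H2-Ab1 (ENSMUSG00000073421; GRCm38 chromosome 17, 34257689 to 34269419, forward strand) encodes the beta chain of I-A and had the highest mean of the 6 genes on the length-corrected scale, at the 73.2nd percentile. Its control libraries read 13.21, 13.14 and 12.47 at 0 h, 12.89, 13.06 and 13.11 at 12 h and 13.18, 13.26 and 13.60 at 24 h. Its Ikaros libraries read 13.42, 13.41 and 12.70 at 0 h, 13.49, 13.69 and 13.67 at 12 h, 12.43, 12.21 and 12.03 at 18 h, and 11.72, 11.64 and 11.75 at 24 h. At 12 h every Ikaros library lay above, and at 18 and 24 h below, every control library. The difference was 0.24 at 0 h (adjusted p = 0.608), 0.56 at 2 h (adjusted p = 0.0593), 0.35 at 6 h (adjusted p = 0.194), 0.60 at 12 h (adjusted p = 0.0205), -0.86 at 18 h (adjusted p = 0.000872) and -1.64 at 24 h (SE 0.21, adjusted p = 1.15e-07). The 12 h call was lost without the first (0.0704) or the second replicate (0.198), and the 2 h difference was called without the third (0.70, adjusted p = 0.00737) and with trend and robust settings (0.0485). In Ikaros cells it fell from 12 to 18 h by 1.39 on the log2 scale (adjusted p = 2.04e-05). From 18 to 24 h it differed by a further -0.52 (adjusted p = 0.153), with every 24 h library below every 18 h library, and this step was called without the third replicate (-0.64, adjusted p = 0.0300). The difference changed by -1.89 from 0 to 24 h (SE 0.29, adjusted p = 6.19e-06) and by -2.20 from 2 to 24 h (7.32e-07). H2-Oa, H2-Ob, H2-DMb1 and Cd74 were called higher in Ikaros cells at 12, 18 and 24 h, so H2-Ab1 was higher with them at 12 h and lower at 18 and 24 h.

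The change of the Ikaros to control difference since 0 h was called by limma for 0, 1, 5, 6 and 5 of the 6 genes at 2, 6, 12, 18 and 24 h, where 3.1%, 15.9%, 29.7%, 43% and 48.4% of all genes were called. For 2 h only 1 gene, H2-DMb1, had an unadjusted p under 0.05, and it was called when only its groups were fitted. From 2 h to 24 h 4 of the 6 were called (47.3%), and the F test over the 5 changes called all 6 (59.8%), with adjusted p from 2.76e-13 for H2-Oa to 0.00880 for H2-DMb1. These comparisons share the 0 h or 2 h libraries. Against their own 0 h, Ikaros cells had 2, 4, 5, 5 and 5 of the 6 genes called over these times, and 19.2%, 32.8%, 46.1%, 54.6% and 60.6% of all genes. A block for the culture batch added 3 calls, H2-Oa at 2 h (0.59, adjusted p = 0.0311), H2-Ob at 6 h (0.64, 0.0296) and H2-Ab1 at 12 h (0.54, 0.0473). That block takes batches 1 and 4 at 0 h as those of later times, though the 0 h cultures came from other occasions. In control cells, the background for drug and culture, limma called 0 of the 6 genes against 0 h at any of the 5 later times, when 0.047%, 5.1%, 0.0549%, 0.478% and 0.47% of all genes were called, and 4 of these 30 tests had an unadjusted p under 0.05: H2-Ab1 at 6 h (a difference of 0.46), H2-Oa (-0.69) and H2-Ob (-0.70) at 12 h, and H2-Ob at 24 h (-0.65).

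Of the 6 genes, 5 lie in the class II region of chromosome 17, and Cd74 does not. Between H2-Oa and Notch4, a span of 496 kb in GRCm38, 13 genes were measured, and the 8 that are not class II genes described above, H2-DMb2 among them, differed between the lines at 24 h by -0.80 to 0.70 with a median of 0.45 (log2). The -0.80 was that of Gm20496, whose mean lay at the 6.85th percentile of all genes. Notch4 (3.79th) and H2-DMb2 (2.30th) were low as well, so the differences of these genes are uncertain. H2-Oa and H2-Ob, 147 kb apart, were both over 5 log2 units higher in Ikaros cells, and H2-Ab1, the next measured gene after H2-Ob, was lower by 1.64. Between H2-DMb1 and H2-Ob lie genes for the proteasome and for the peptide transporter of the class I pathway. There Psmb9 (0.70, adjusted p = 0.0179), Tap1 (0.52, 0.000321) and Tap2 (0.40, 0.00118) were higher in Ikaros cells, and Psmb8 differed by -0.21 (0.184). Without the second replicate Psmb9 (0.45, adjusted p = 0.223) and Tap2 (0.26, 0.118) were not called. Brd2 (0.32, 0.270) and Notch4 (0.50, 0.401) did not pass the test either.

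**Figure D3:**
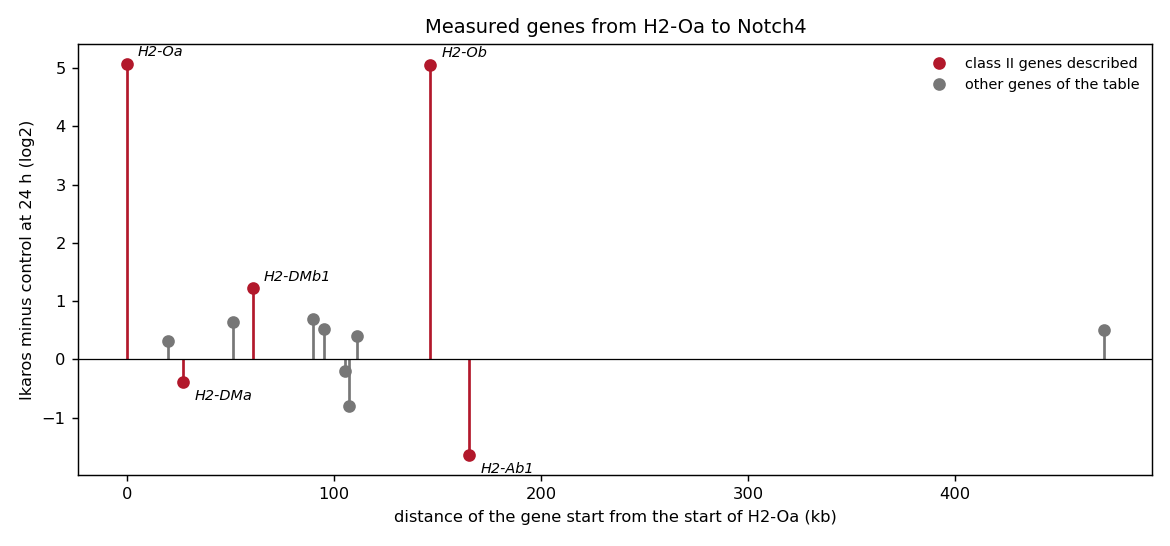
Ikaros minus control at 24 h (vertical axis, log2) for the 13 measured genes from H2-Oa to Notch4, placed by the distance of the gene start from that of H2-Oa in kb (horizontal axis); each stem is 1 gene, red for the class II genes described and grey for the others. H2-Oa (5.08) and H2-Ob (5.06) stand far from the grey genes, which lie between -0.80 and 0.70, and H2-Ab1 (-1.64) points the other way.

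The proteins that act on class II promoters were counted next, at 24 h, where 62.9% of all genes were called and the median difference over all genes was -0.01. All 7 genes of the promoter complex were measured: 4 were higher, 1 was lower and the median difference was 0.27. Rfx5, an X box binding subunit of RFX, read 9.99, 9.99 and 9.54 in control and 12.41, 12.22 and 12.25 in Ikaros cells, a difference of 2.45 (SE 0.20, adjusted p = 3.36e-11). Rfxank, another RFX subunit, was higher by 1.42 (SE 0.15, adjusted p = 7.42e-09), whereas the third subunit, Rfxap, differed by 0.00 (95% interval -0.41 to 0.41, adjusted p = 0.999). Creb1 was higher by 0.56 (adjusted p = 0.000942), and Nfya, a subunit of NF-Y, was lower (-0.56, adjusted p = 0.000433). Of the 3 RFX subunits 2 were therefore called. The remaining call of the list, Nfyb (0.27, adjusted p = 0.00344), named after its value was seen, was lost without the first (0.0533) or the third replicate (0.0623) and with only its 2 groups fitted (0.0501).

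Of 13 genes that act upstream of Ciita, in interferon gamma signalling or as B cell factors, 11 were measured, 8 were higher, 1 was lower (31% and 31.9% of all genes) and the median difference was 1.08. Irf1, an interferon-induced transcription factor, read 11.20, 11.22 and 11.16 in control and 13.40, 13.07 and 13.33 in Ikaros cells, a difference of 2.07 (SE 0.12, adjusted p = 1.81e-14). The interferon gamma receptor chain Ifngr1 (1.46, adjusted p = 4.18e-12), the kinase Jak2 (1.44, 2.92e-08) and their inhibitor Socs1 (1.35, 1.15e-05) were higher as well. Of the others, Ifngr2 was not called without the third replicate (adjusted p = 0.101) and Tcf3 not without the second (0.115). The gene that was lower was Irf8 (-0.88, adjusted p = 2.41e-07), named here after its value was seen. Earlier values did not all point the same way. Socs1 was lower in Ikaros cells at 0 h (-0.96, adjusted p = 0.00688), at 2 h (-1.20, 0.000405) and at 6 h (-1.37, 3.70e-05), and Irf1 was lower at 0 h (-0.59, 0.000921). Irf4, a B cell factor named after its values were seen, had the largest difference of the list at any time: at 2 h its mean was 4.07 in Ikaros and 9.08 in control cells (-5.02, adjusted p = 2.93e-10). It was still lower at 6 h (-4.56, adjusted p = 6.99e-10), 12 h (-3.12, 2.07e-07) and 18 h (-1.46, 0.00196), and differed by 0.11 at 24 h (0.824). The Ikaros mean of Irf4 at 2 h lay under the 5th percentile of gene means (6.15), so the size of that difference is uncertain. The values of these genes before 24 h were not refitted under the alternatives. Of these 11 genes, 0 were called higher and 2 lower at 0 h, when 8.33% of all genes were called, and 2 were higher and 2 lower at 2 h, when 19.1% were.

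Of 9 genes of class II processing and turnover 7 were measured, 6 were higher, 0 were lower (all 7 differences were positive), and the median difference was 0.80, where 31% of all genes were higher and 31.9% lower. Ctss, cathepsin S, the protease that makes the last cuts in the invariant chain of B cells, read 9.30, 9.16 and 8.90 in control and 12.64, 12.47 and 12.93 in Ikaros cells, a difference of 3.56 (SE 0.20, adjusted p = 1.65e-14). March8, a ubiquitin ligase that removes class II from the surface (1.12, adjusted p = 0.00232), the protease Ctsd (1.00, 7.44e-07) and Sppl2a, which clears the last membrane-bound piece of the invariant chain (0.80, 0.000108), were higher too. Ifi30, a thiol reductase of antigen processing, differed by 0.21 (adjusted p = 0.438). Lgmn, another protease, was higher by 0.38 (adjusted p = 0.0327) but was lost without the second (0.0970) or the third replicate (0.400, with a difference of 0.18) and with only its 2 groups fitted (0.0914). Over all times the lowest Ikaros library of Ctss read 9.91 and the highest control library 9.68. For Ctss the lines were therefore apart already at 0 h. Of the 7 genes 1 was called higher at 0 h and 3 at 2 h, with 0 lower. At these times 8.33% and 19.1% of all genes were called.

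Cd74 also serves as a surface receptor for the cytokine Mif, and all 4 genes of that receptor list were called at 24 h, when 62.9% of all genes were, with a median difference of -1.68 against -0.01 over all genes. Cxcr4 was higher (2.42, adjusted p = 6.39e-10), and Cxcr2 (-2.42, 0.00620), Cd44 (-1.86, 1.30e-10) and Mif itself (-1.50, 2.14e-09) were lower. Cd74 and Cxcr4 were thus higher in the same cells in which Mif, Cd44 and Cxcr2 were lower, and the call of Cxcr2 was lost without the second replicate (-2.67, adjusted p = 0.0579). This list already had 1 call at 0 h, toward lower values in Ikaros cells, and again 1 such call at 2 and at 6 h. Cd44 means at 0 h were 12.50 in control and 11.86 in Ikaros cells, with no overlap. The change of the difference from 0 to 24 h was called for all 4, upward for 1 and downward for 3.

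**Figure D4:**
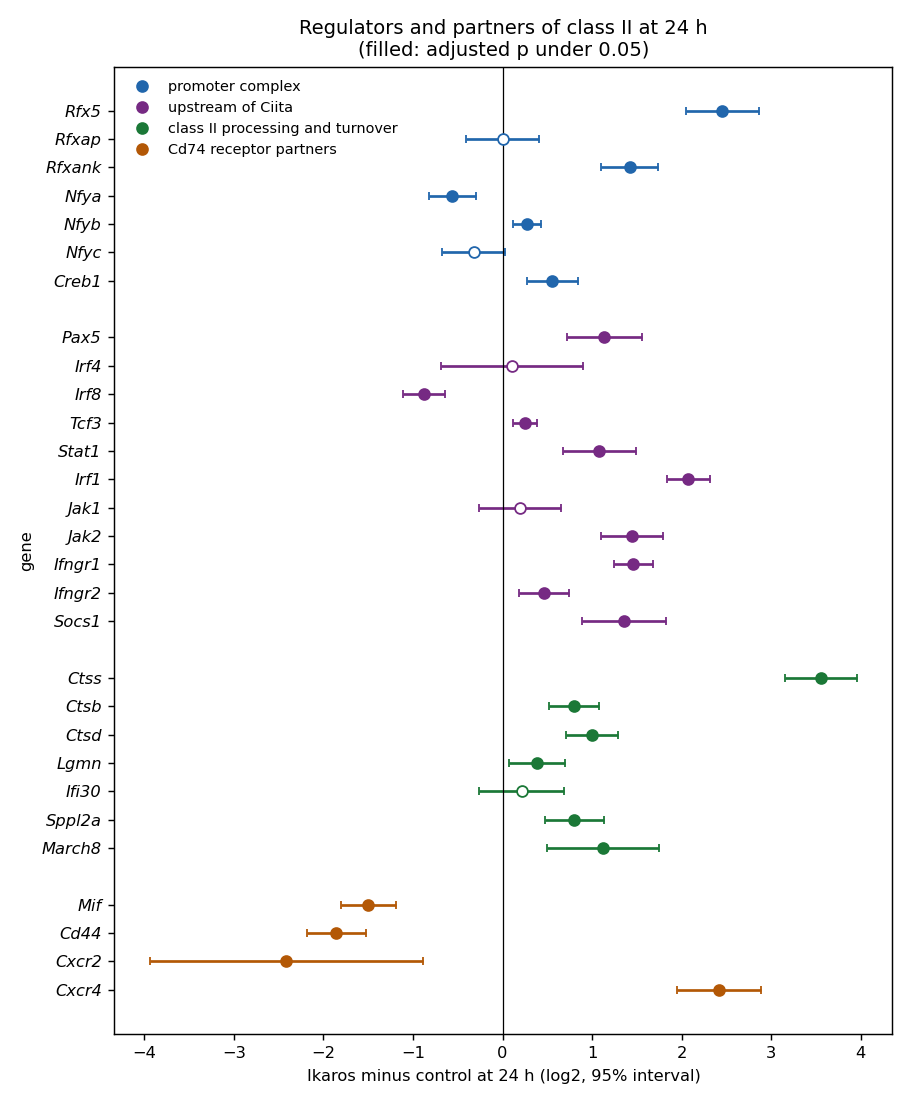
Ikaros minus control at 24 h (horizontal axis, log2) for the measured genes of 4 lists (rows): promoter complex, upstream of Ciita, class II processing and turnover, and Cd74 receptor partners; points are limma estimates from 3 libraries a group with 95% intervals, filled where the adjusted p was under 0.05. Ctss (3.56), Rfx5 (2.45), Cxcr4 (2.42) and Irf1 (2.07) stand farthest to the right, and Cxcr2 (-2.42) farthest to the left.

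The genes with the most similar pattern were found by Pearson correlation over the 36 libraries, which share the 12 groups, so the values describe and carry no test. For H2-Oa they were Pink1 (r = 0.986), Ube2h (0.983) and Cd53 (0.982), and for H2-Ob Calcoco1 (0.988), Ralgps2 (0.981) and Mxd4 (0.978). For H2-Ab1 they were Gpi1 (0.943), Gbe1 (0.941) and Higd1a (0.941), and in Ikaros cells at 24 h Gpi1 stood at 16.94 against 18.09 in control cells. For Cd74 they were Pax5 (0.882), AI846148 (0.881) and Atp5sl (0.874). For H2-DMb1 they were Serpinb1a (0.916), 1110034G24Rik (0.905) and Vps39 (0.897), and for H2-DMa, whose best value was the lowest of the 6, Rpl3 (0.719), Spata7 (0.708) and Thoc5 (0.699). No class II gene was among the 3 most similar genes of another.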

How the data were processed

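RNA-seq was made from 36 libraries of B3 cells. The authors aligned fragments to mm10 with TopHat2, counted them per gene with HTSeq, corrected the counts for GC content and length with cqn and, by non-parametric ComBat, for library preparation, and deposited log2 values. The lowest value is 1, and a shift by a constant is inferred from it. The base 2 follows from cqn and is not stated in the table. Correction before deposition can make standard errors too small. The table gives no depth, and precision is limited by 3 libraries per group. In the reported fit, p-values rest on the spread within groups, pooled over all 36 libraries and moderated across genes.

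One limma 3.58.1 model (R 4.3.3) with a mean for each of 12 groups was fitted to all 12762 genes with two-sided tests and Benjamini-Hochberg adjustment, and was tested on simulated data. Figures and levels used Python 3.11.15, numpy 2.4.6 and pandas 2.3.3. Positions came from GENCODE release 21 (GRCm38, 98.7% of genes matched) and promoters from RefSeq. A summed level is the log2 of the sum of unlogged values. Groups came from the labels. The members, lists and tests were chosen with earlier results of these data known, and contrasts of successive times and the promoter spacing after values were seen. All members and, per list, up to 4 called genes with the largest 24 h difference were named, with the 3 most similar genes per member.

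Batch numbers in the labels pair control and Ikaros cultures: paired deviations from group means correlated with r of -0.0620 to 0.507 over 18 pairs (median 0.127, 12 above 0.1). Alternatives were a batch block, quantile normalization, removal of genes with a mean under the 25th percentile (9571 kept), eBayes with trend and robust settings, a separate fit per comparison, and leaving out replicates one at a time. Replicates were numbered here in the order of the batches. The first was batch 1, the second batch 2 at 0 h and batch 3 at later times, and the third batch 4.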

Additional observations from a re-analysis of the deposited data

Results flagged for a closer look

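For 5 of the 6 genes the gap between the lines was not the same at 24 h as at 0 h by the limma test of that change, with Benjamini-Hochberg adjustment over all genes. The change was 4.96 for H2-Ob, 3.99 for H2-Oa, 2.26 for Cd74, 1.21 for H2-DMb1 (adjusted p = 0.00242) and -1.89 for H2-Ab1 (log2), and 48.4% of all genes were called in the same comparison. All 5 share the 0 h and 24 h libraries, and the 0 h cultures were obtained on other occasions.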

How the results depend on the processing

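Of 990 values of the 6 genes under the alternatives, 934 kept direction and side of the threshold, 44 were no longer called, 12 became called and 0 reversed. Quantile normalization and trend and robust settings moved no count of class II calls by over 1.5 times. The filter dropped Cd74, H2-DMa and H2-DMb1, which alone lowers counts: 1 called at 6 h and 3 at 12, 18 and 24 h between the lines, 2, 3 and 3 for the change since 0 h at 12, 18 and 24 h, 0, 2, 2, 3 and 3 for Ikaros cells against 0 h at 2, 6, 12, 18 and 24 h, and 3 for the F test. Fits of only the compared groups called 0 at 0 h and 1 at 6 h between the lines, 1 at 2 h and 0 at 6 h for the change since 0 h, and 1 at 2 h and 2 at 6 h for Ikaros cells against 0 h; the F test was not run in them. Without 1 replicate the counts between the lines were 0 to 1 at 0 h, 1 to 3 at 2 h and 1 to 2 at 6 h, those for the change since 0 h 0 to 1 at 6 h and 3 to 5 at 12 h, and those for Ikaros cells against 0 h 0 to 2 at 2 h and 1 to 3 at 6 h. The culture batch as a block added the 3 calls given above, of H2-Oa (0.59), H2-Ob (0.64) and H2-Ab1 (0.54) in Ikaros cells against 0 h. Among the steps between successive times it also gave calls of H2-Oa from 12 to 18 h in Ikaros cells (0.53, adjusted p = 0.0353) and of H2-Ob from 6 to 12 h in control cells (-0.93, 0.0181), and it changed no other call of the 6 genes. Over all genes it called 3720 in place of 2444 for Ikaros cells at 2 h, and 2585 in place of 651 and 129 in place of 61 for control cells at 6 and 18 h. Other counts over all genes that moved by over 1.5 times were, between the lines, 1063 at 0 h (701 filtered, 318 to 1204 without 1 replicate), 2432 at 2 h (860 with only its groups, 804 to 2719), 4759 at 6 h (2150, 2640 to 4971) and 5850 at 12 h (3769 to 5921). For the change since 0 h they were 396 at 2 h (257, 54 to 469), 2024 at 6 h (584 to 1954), 3795 at 12 h (1548 to 3924), 5492 at 18 h (3077 to 5809) and 6180 at 24 h (4056 to 6404), with 6037 from 2 to 24 h (3775 to 6217) and 7626 for the F test (4064 to 7616). For Ikaros cells they were 2444 at 2 h (758, 645 to 1599), 4182 at 6 h (2471, 1904 to 3707) and 5888 at 12 h (3598 to 5700). For control cells they were 6 at 2 h (0, 0 to 6), 651 at 6 h (12, 0 to 115), 7 at 12 h (0, 0 to 8, and 4 after quantile normalization), 61 at 18 h (0, 0 to 10) and 60 at 24 h (0, 0 to 22). Among the steps between successive times, 17 of 360 values lost a call and 5 gained one, and among the pathway genes at 24 h 11 of 284 lost a call, 1 gained one and 0 reversed; both sets of refits were chosen after seeing the data. The cause of these shifts was not tested.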
